A study of Mus musculus with 6 samples.

Results

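Genes of glycolysis and of the response to low oxygen were followed in endothelial cells grown from mouse brain that were either wild type or deleted for Erg and Fli1, genes of ETS-family transcription factors. The set holds 34 of the 52636 genes counted, chosen by name for what they are known to do, with earlier results of these libraries known: 20 glycolytic genes and 14 genes that sense or respond to hypoxia. Every member passed the filter on low counts. The 6 libraries were polyadenylated RNA from 3 samples with the genotype wild type control (called controls) and 3 with the genotype Erg and Fli1 double knockout (called knockouts). All cultures, controls included, received 4-OHT, and living cells were sorted as CD45 negative, CD31 positive and VE-cadherin positive. The labels do not name the Cre recombinase or its promoter, the strain, the age or sex of the mice, the oxygen level of the cultures, or which samples came from separate animals or cultures. The p-values therefore measure the spread between these samples. Each group held cells of both sexes, as described further on, but samples of the same sex may still be technical repeats.

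Glycolysis splits glucose into pyruvate in the cytosol, and lactate dehydrogenase turns pyruvate into lactate; endothelial cells are known for drawing much of their ATP from this route. Hypoxia-inducible factors (HIFs) pair an oxygen-regulated alpha subunit, encoded by Hif1a or Epas1, with the stable partner encoded by Arnt, and they raise many glycolytic genes when oxygen is short. With oxygen present, prolyl hydroxylases (Egln1, Egln3) mark the alpha subunits for the ubiquitin ligase that contains the Vhl protein, so transcript levels of the subunits are not a measure of HIF activity.

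Libraries held 17274639 to 19410458 counts. Levels are CPM, a library's counts divided by its TMM-scaled total and set to a standard total, and errors are SDs of the n = 3 libraries of a group. The log2FC is the fitted log2 fold change of knockout over control, given with its standard error (SE) and the p-value adjusted over all tested genes. FPKM, which is CPM per kilobase of annotated exon, is used where genes are compared with one another. Erg had 496 ± 237 CPM in controls and 89.2 ± 19.6 in knockouts (log2FC -2.48, SE 0.44, edgeR adjusted p = 0.0137), and Fli1 had 79.6 ± 14.3 and 64.0 ± 6.14 CPM (log2FC -0.32, edgeR adjusted p = 0.181), which was called lower when control 2 was left out (log2FC -0.48, SE 0.09, edgeR adjusted p = 0.00346). Counts cover whole genes, so transcripts without a deleted exon are counted too. Control 2 stood apart, with a chi-square over degrees of freedom of 210 and 191 when its counts were set against controls 1 and 3, whose own comparison gave 6.28. Its 12 fibroblast markers summed to 14600 CPM, compared with 474 and 1270 in the other controls and a range of 1670 to 2900 in knockouts, where Dcn, a matrix proteoglycan gene, made up 1340 to 2110 CPM and Col1a1 104 to 235 CPM. Its 10 endothelial markers summed to 6340 CPM, compared with 14100 and 14200 in the others and a range of 2520 to 3270 in knockouts, where 10 of 10 fell. Pericyte and smooth muscle markers reached 4300 CPM in control 2 and 478 to 1580 CPM elsewhere. Leukocyte and microglia markers (11 genes) summed to 12.1 to 41.6 CPM in controls and 122 to 185 CPM in knockouts, of which Cd14 held 119 to 182 CPM, while Ptprc, which encodes CD45, was at most 0.21 CPM in every library and Tyrobp, C1qa and C1qb were at 0. Of the erythroid markers, 4 of 5 were at 0 throughout. In bulk RNA, fewer cells of a type and less RNA per cell cannot be told apart. Because control 2 stood apart, results are given for all libraries and, where it matters, without it.

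Between knockouts and controls, 14 of the 34 genes differed (edgeR, adjusted p under 0.05), 7 glycolytic and 7 hypoxia-response genes. Among all 13901 tested genes 24.7% were called, 13.1% higher and 11.7% lower. The glycolytic set had 5 genes higher and 2 lower, or 35.0% called, with a median log2FC of 0.01 against 0.003 for all genes. The hypoxia-response set had 5 higher and 2 lower, or 50% called, with a median of 0.16. Knockout levels lay wholly above or below control levels in 10 of the 20 glycolytic and 11 of the 14 hypoxia-response genes, against 46.3% of all tested genes. Without control 2, 50.3% of 14178 tested genes were called, 25.5% higher and 24.8% lower. The glycolytic set then had 9 higher and 3 lower and the hypoxia-response set 7 higher and 3 lower, and all 14 earlier calls were kept in the same direction. The controls left in that fit, 1 and 3, were of the same sex and differed little from each other. Knockouts 2 and 3 were of the other sex, as described further on. Sex and genotype are thus partly mixed in every result without control 2, and its small p-values may reflect technical repeats.

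At the start of glycolysis the transcripts of Hk1 and Pfkp were lower, and the other genes showed no called change with all libraries. Hk1, encoding the hexokinase that traps glucose in most tissues (ENSMUSG00000037012; GRCm38 chromosome 10, 62268855 to 62379908, minus strand), had 352, 291 and 354 CPM in controls 1 to 3 and 226, 210 and 230 in knockouts 1 to 3. All knockouts lay below all controls, and the log2FC was -0.58 (SE 0.10, edgeR adjusted p = 0.0119), 0.668 of the control level. Pfkp, the platelet-type phosphofructokinase subunit (ENSMUSG00000021196; chromosome 13, 6579768 to 6648777, minus strand), had 186, 159 and 162 CPM in controls and 118, 119 and 123 in knockouts. Here too the groups did not overlap, and the log2FC was -0.50 (SE 0.08, edgeR adjusted p = 0.00927). Pfkl, the liver-type subunit of the same enzyme, had 380 ± 15.01 CPM in controls and 380 ± 8.36 in knockouts, and the muscle-type Pfkm had 58.1 ± 3.11 and 54.7 ± 2.79 CPM. Neither change was called (edgeR adjusted p = 0.997 and 0.413). By FPKM, Pfkp was 14.5 ± 0.880% of the summed level of these 3 subunits in controls and 10.9 ± 0.118% in knockouts, without overlap. Gpi1, encoding the isomerase between hexokinase and phosphofructokinase, had 398 ± 21.2 and 403 ± 4.75 CPM (edgeR adjusted p = 0.873). Hk1 was no longer called when control 1, control 3, knockout 1 or knockout 2 was left out, nor Pfkp when knockout 1 or 2 was; the highest adjusted p among these edgeR fits were 0.0627 and 0.0529.

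Hk2, the inducible hexokinase and a HIF target, was one of the genes that control 2 decided. It had 10.7, 70.3 and 14.3 CPM in controls 1 to 3 and 27.4, 23.7 and 22.8 in knockouts, so that control 2 was above every knockout and the other controls below them. The log2FC was -0.37 with all libraries (SE 0.73, edgeR adjusted p = 0.744) and 0.94 without control 2 (SE 0.15, edgeR adjusted p = 0.00189). In FPKM, Hk2 was 4.18% and 5.46% of the hexokinase pair in controls 1 and 3, 25.7% in control 2 and 12.4 to 14.8% in knockouts. Control 2 also stood apart for the regulators of phosphofructokinase, as the lowest control for Pfkfb3 and the highest for Pfkfb4. Pfkfb3, which makes the activator fructose-2,6-bisphosphate and is known for its role in vessel sprouting, had 120, 102 and 119 CPM in controls and 103, 95.2 and 105 in knockouts. Its log2FC was -0.17 (SE 0.09, edgeR adjusted p = 0.198) and -0.28 without control 2 (edgeR adjusted p = 0.00686). Its relative Pfkfb4 had 3.16, 13.5 and 3.50 CPM in controls and 2.93, 3.90 and 3.73 in knockouts. Control 2 was far above the other libraries; leaving it out turned the log2FC of -0.94 into 0.043 (edgeR adjusted p = 0.311 and 0.875). Fibroblast and pericyte markers were high in the same library; their part in these values was not tested.

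**Figure D1:**
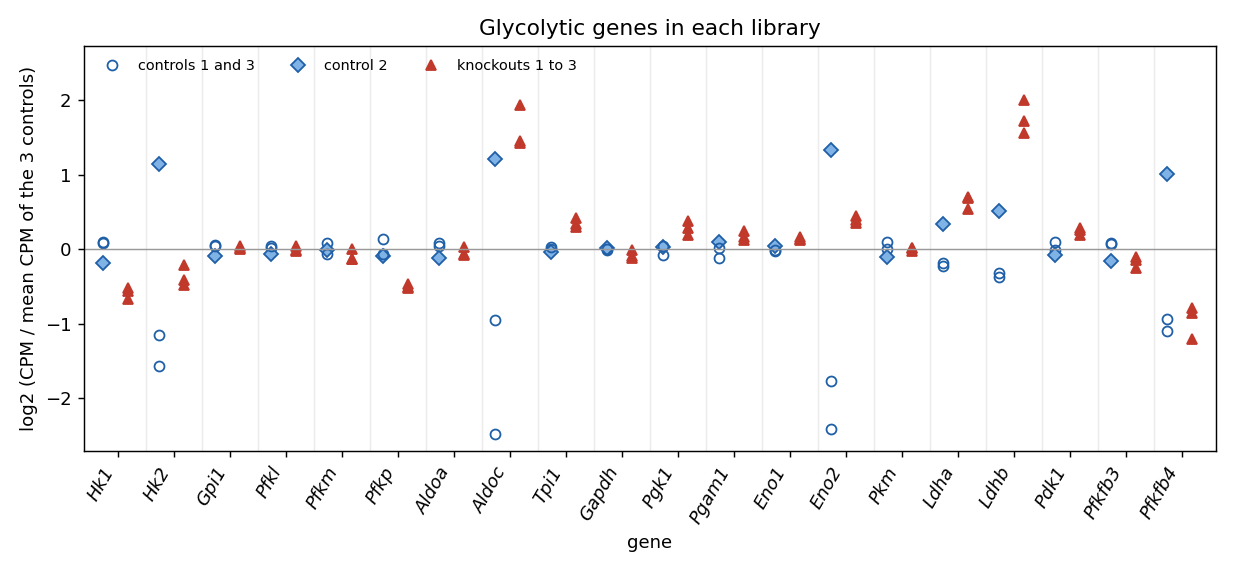
Log2 of the CPM of each glycolytic gene in each library over the mean CPM of the 3 controls. Genes on the x axis follow the pathway from Hk1 to Ldhb, and then come the regulators Pdk1, Pfkfb3 and Pfkfb4. Blue circles are controls 1 and 3, blue diamonds control 2 and red triangles the 3 knockouts. Ldhb and Ldha are among the genes that lie above the controls in all knockouts. Control 2 is far above the other controls for Hk2, Aldoc, Eno2 and Pfkfb4, and is also the highest control for Ldha and Ldhb.

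Of the enzymes from aldolase to pyruvate kinase, Tpi1 and Pgk1 rose slightly and the others had no called change with all libraries. Aldoa, encoding the main aldolase, had 1100 ± 80.8 CPM in controls and 1070 ± 41.9 in knockouts (edgeR adjusted p = 0.781). Gapdh had 897, 914 and 911 CPM in controls and 854, 898 and 836 in knockouts, with a log2FC of -0.073 (SE 0.08, edgeR adjusted p = 0.516). Pkm, the pyruvate kinase gene, had 1817 ± 127 and 1821 ± 32.7 CPM (edgeR adjusted p = 0.988). Gapdh is often used as a reference, and none of these 3 genes was called in these libraries. Tpi1, encoding triosephosphate isomerase (ENSMUSG00000023456; chromosome 6, 124810586 to 124814296, minus strand), had 460, 448 and 470 CPM in controls and 581, 612 and 563 in knockouts. The groups were apart, with a log2FC of 0.35 (SE 0.07, edgeR adjusted p = 0.0197), or 1.27-fold. Pgk1, encoding phosphoglycerate kinase (ENSMUSG00000062070; chromosome X, 106187100 to 106203699, plus strand), had 302, 323 and 327 CPM in controls and 385, 411 and 363 in knockouts. Its rise was 1.22-fold (log2FC 0.28, SE 0.08, edgeR adjusted p = 0.0463). Neither gene stayed called once control 1, control 3 or any 1 knockout was removed, where the highest edgeR adjusted p were 0.0840 and 0.148, and Pgk1 also missed the threshold with RLE size factors and without the filter.

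Pgam1 and Eno1, which follow Pgk1 in the pathway, were slightly higher in every knockout than in every control without passing the test. Pgam1 had 83.4 ± 6.34 CPM in controls and 94.3 ± 4.16 in knockouts (edgeR adjusted p = 0.138), and 0.0258 was its edgeR adjusted p without control 2. Eno1, the main enolase gene, had 863 ± 20.2 and 950 ± 12.7 CPM (log2FC 0.14, SE 0.07, edgeR adjusted p = 0.223). The enolase that marks neurons, Eno2, had 1.47, 19.7 and 2.30 CPM in controls and 9.96, 10.3 and 10.6 in knockouts. Control 2 lay above the knockouts and the other controls below them, so that the log2FC went from 0.39 (edgeR adjusted p = 0.792) to 2.41 without control 2 (SE 0.19, edgeR adjusted p = 8.421e-05). Neural and glial markers (11 genes) summed to 17.2, 70.4 and 23.8 CPM in controls and 66.2, 84.3 and 57.2 in knockouts, of which the neuronal tubulin gene Tubb3 held 13.7, 64.0 and 20.9 and then 62.4, 76.5 and 52.2 CPM; Rbfox3 and Gfap were at most 0.223 and 0.547 CPM in every library, and the part of neural transcripts in the Eno2 values was not tested. Aldoc, the brain-type aldolase, was near the lower limit, with 3, 13 and 1 counts in controls and 16, 21 and 15 counts in knockouts. Its log2FC was 1.60 (SE 0.76, edgeR adjusted p = 0.177) and 3.02 without control 2 (edgeR adjusted p = 0.00360), which then rests on 4 control counts. In FPKM, Eno2 made up at most 2.48% of the enolase pair and Aldoc at most 0.0933% of the aldolase pair in any library.

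Copies of these genes elsewhere in the genome held few of the counts. Other annotated genes share 25.1% of the 50-base words of Gapdh transcripts, 53.9% of those of Pgk1, 36.2% of those of Pgam1, 26% of those of Eno1 and 47.2% of those of Bnip3, described further on. The 57 Gapdh copies in the table held 1.69 to 2.01% as many counts as Gapdh, and the 2 Pgk1 copies 0.0336 to 0.107% as many as Pgk1. Adding the counts of copies to the members changed no call. How reads that fit several copies were counted is not given in the sources used here, so these levels remain uncertain to that extent.

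Lactate dehydrogenase genes rose, and Ldhb had the largest fold change among the called glycolytic genes. Ldha, encoding the subunit that favours the making of lactate (ENSMUSG00000063229; chromosome 7, 46841475 to 46855627, plus strand), had 863, 1280 and 893 CPM in controls and 1622, 1640 and 1470 in knockouts. Every knockout was above every control, and the log2FC was 0.64 (SE 0.18, edgeR adjusted p = 0.0494), or 1.56-fold. Ldhb, encoding the heart-type subunit that favours the use of lactate (ENSMUSG00000030246; chromosome 6, 142490249 to 142507957, minus strand), had 11, 20.4 and 11.4 CPM in controls and 42.1, 57.1 and 47.0 in knockouts. It rose 3.41-fold (log2FC 1.77, SE 0.28, edgeR adjusted p = 0.00964), and the call held in 17 of 17 alternative settings. In FPKM the Ldhb share of the pair went from 2.83 ± 0.369% to 6.11 ± 0.841%, so that Ldha remained the main transcript in every library. Control 2 was the highest control for both genes, and without it the log2FCs were 0.81 and 2.09. Ldha missed the threshold when control 1, control 3 or any 1 knockout was removed (highest edgeR adjusted p 0.149), with RLE size factors and without the filter.

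Pdk1, encoding a kinase that shuts pyruvate dehydrogenase and so keeps pyruvate out of mitochondria, rose a little. It had 85.1, 80.9 and 91.5 CPM in controls and 103, 104 and 97.8 in knockouts (ENSMUSG00000006494; chromosome 2, 71873224 to 71903858, plus strand). The groups were apart, with a log2FC of 0.24 (SE 0.06, edgeR adjusted p = 0.0440). Pdk1 missed the threshold when control 1, control 3 or any 1 knockout was removed (highest edgeR adjusted p 0.158), with RLE or upper-quartile scaling, and without the filter.

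Summed over the 20 genes, glycolytic transcripts made up 8025, 8188 and 8260 CPM in controls and 8820, 9042 and 8589 in knockouts. Control 2, with its high Hk2, Eno2 and Pfkfb4, was within the range of the other controls in this sum, which is carried by a few abundant genes. In control FPKM these were Aldoa (378 ± 27.8), Pkm (363 ± 25.4), Ldha (306 ± 70.3), Gapdh (220 ± 2.18), Tpi1 (167 ± 3.91), Eno1 (161 ± 3.75) and Pgk1 (141 ± 6.07). Neighbours in this order from Aldoa to Ldha, and Tpi1 with Eno1, differed by less than the sum of their SDs. In knockouts Ldha, at 477 ± 28.1 FPKM, was above Aldoa (368 ± 14.4) and Pkm (364 ± 6.53).

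The hypoxia-response genes are introduced by their promoters, because HIF binds a short DNA core. The sequences below are the 250 bases before a RefSeq start of the genes that changed most, plus Ldha and Ldhb, on GRCm38.p6, written 5′ to 3′ on the strand of the gene. Capitals mark ACGTG or GCGTG, the core of the hypoxia response element, and CCGGAA, a core that ETS factors bind, each on either strand; CACGTG is read on both strands, and matches that overlap run together.
Hif1a promoter, chr12:73907617-73907866, plus strand: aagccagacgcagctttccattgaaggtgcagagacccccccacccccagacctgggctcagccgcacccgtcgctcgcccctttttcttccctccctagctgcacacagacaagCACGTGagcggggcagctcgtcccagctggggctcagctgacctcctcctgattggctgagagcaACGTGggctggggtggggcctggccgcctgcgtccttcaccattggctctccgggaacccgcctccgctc
Egln3 promoter, chr12:54203875-54204124, minus strand: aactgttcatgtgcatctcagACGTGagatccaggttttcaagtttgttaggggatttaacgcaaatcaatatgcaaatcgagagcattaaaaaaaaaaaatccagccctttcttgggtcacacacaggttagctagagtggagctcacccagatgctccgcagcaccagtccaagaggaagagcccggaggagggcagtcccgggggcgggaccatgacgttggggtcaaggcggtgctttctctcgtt
Bnip3 promoter, chr7:138909507-138909756, minus strand: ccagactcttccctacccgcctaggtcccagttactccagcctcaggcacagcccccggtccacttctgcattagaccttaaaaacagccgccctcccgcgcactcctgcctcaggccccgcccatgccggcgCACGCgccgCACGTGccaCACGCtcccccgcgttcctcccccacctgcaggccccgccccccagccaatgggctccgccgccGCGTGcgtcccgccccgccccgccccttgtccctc
Ddit4 promoter, chr10:59951771-59952020, minus strand: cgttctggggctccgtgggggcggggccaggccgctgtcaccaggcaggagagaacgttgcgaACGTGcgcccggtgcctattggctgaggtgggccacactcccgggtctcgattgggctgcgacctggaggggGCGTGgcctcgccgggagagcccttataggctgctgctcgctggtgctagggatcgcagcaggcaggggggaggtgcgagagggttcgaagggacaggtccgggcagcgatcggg
Ankrd37 promoter, chr8:45999851-46000100, minus strand: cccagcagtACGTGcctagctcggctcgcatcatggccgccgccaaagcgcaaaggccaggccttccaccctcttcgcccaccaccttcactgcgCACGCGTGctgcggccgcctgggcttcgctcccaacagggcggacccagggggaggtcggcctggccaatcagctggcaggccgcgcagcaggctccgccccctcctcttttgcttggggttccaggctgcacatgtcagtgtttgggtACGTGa
Ldha promoter, chr7:46845554-46845803, plus strand: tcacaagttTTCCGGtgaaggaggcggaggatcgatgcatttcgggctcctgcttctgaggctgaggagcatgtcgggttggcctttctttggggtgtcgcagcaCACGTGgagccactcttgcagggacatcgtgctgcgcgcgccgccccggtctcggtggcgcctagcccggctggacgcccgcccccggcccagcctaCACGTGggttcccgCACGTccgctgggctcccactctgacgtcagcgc
Ldhb promoter, chr6:142507958-142508207, minus strand: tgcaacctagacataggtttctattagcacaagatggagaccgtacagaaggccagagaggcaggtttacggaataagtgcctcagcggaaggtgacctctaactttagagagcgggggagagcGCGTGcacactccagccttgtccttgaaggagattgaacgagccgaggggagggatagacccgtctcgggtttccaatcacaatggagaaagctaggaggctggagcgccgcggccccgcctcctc
In these stretches Ldha held CACGTG 2 times, Hif1a and Bnip3 held it once, and Egln3 had a single ACGTG that began 229 bases before the start. Among them CCGGAA was found in Ldha only, 241 bases before the start and on the opposite strand. Ldha has another RefSeq start, not printed here (chr7:46846832-46847081). The 250 bases before it held GCGTG 1 time and no ACGTG or CCGGAA.

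Over the whole 300-base windows, which add the first 50 transcribed bases, ACGTG or GCGTG was present in 10 of the 11 hypoxia-response genes with a window and in 17 of the 20 glycolytic genes. The gene counted if any of its windows held a match, and some glycolytic genes have several. By window the shares were 90.9% of 11 and 75.8% of 33, against 43.8% of all 32851 promoter windows. Vhl was the hypoxia-response gene without a match; Epas1, Bnip3l and Ndrg1 had no window in the table. CCGGAA was in 0 of 11 hypoxia-response windows and in 5 of 33 glycolytic windows (15.2%), against 14.9% of all windows. A match in letters is not a bound site.

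The alpha subunit genes of HIF were both higher in every knockout than in every control, and Hif1a passed the test. Hif1a (ENSMUSG00000021109; chromosome 12, 73901375 to 73947530, plus strand) had 342, 439 and 351 CPM in controls and 832, 827 and 804 in knockouts. The 3 knockouts lay close together and far above the controls, a 2.18-fold rise (log2FC 1.12, SE 0.12, edgeR adjusted p = 0.00342) that held in 17 of 17 alternative settings. Epas1, encoding HIF-2 alpha, which is known as the endothelial form (ENSMUSG00000024140; chromosome 17, 86753700 to 86833410, plus strand), had 981, 665 and 979 CPM in controls and 1470, 1194 and 1237 in knockouts. Its log2FC of 0.57 did not pass the test (SE 0.19, edgeR adjusted p = 0.0750). Without control 2, its lowest library, the value was 0.37 and passed (SE 0.10, edgeR adjusted p = 0.0164), as it also did with DESeq2 and with library size only. In FPKM Epas1 stayed the more abundant of the pair, at 157 ± 32.5 against 64.0 ± 9.15 for Hif1a in controls and 233 ± 26.6 against 139 ± 2.57 in knockouts. The Hif1a share of the pair was 24.8%, 38.5% and 25.4% in controls 1 to 3 and 34.9 to 39.6% in knockouts, so control 2 overlapped the knockouts. Arnt, the shared partner, had 91.7 ± 2.17 and 98.3 ± 2.94 CPM (log2FC 0.10, SE 0.05, edgeR adjusted p = 0.202). Exons of other genes cover 2.51% of the Hif1a exons on its strand and 5.60% on the opposite strand.

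**Figure D2:**
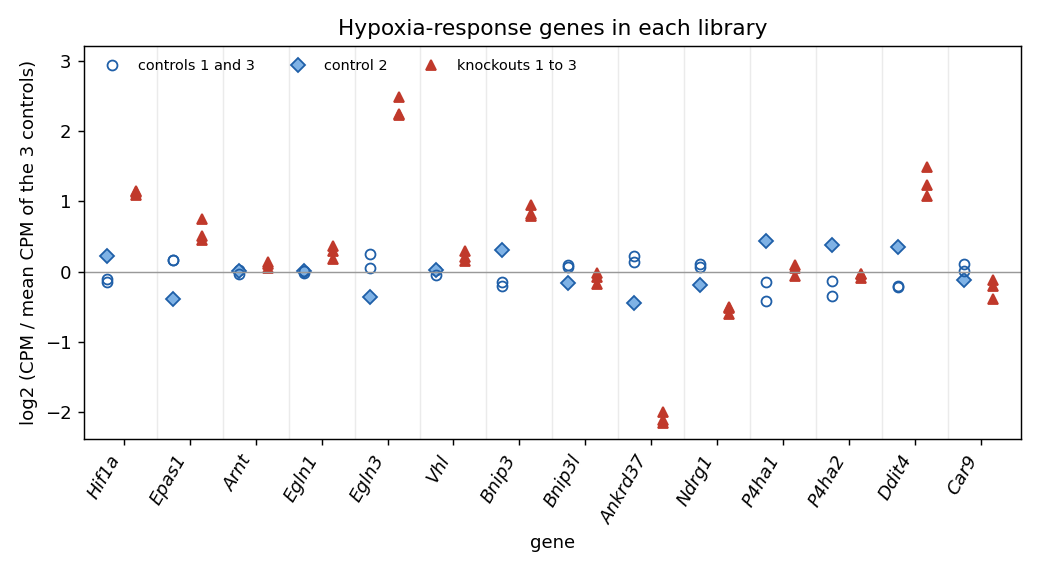
Log2 of the CPM of each hypoxia-response gene in each library over the mean CPM of the 3 controls. Blue circles are controls 1 and 3, blue diamonds control 2 and red triangles the 3 knockouts; Egln3, Ddit4, Hif1a and Bnip3 lie above all controls and Ankrd37 and Ndrg1 below all controls in the 3 knockouts.

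The prolyl hydroxylase gene Egln3 had the largest rise of all 34 genes that passed the test. Egln3, whose enzyme marks HIF alpha subunits and which is itself a HIF target (ENSMUSG00000035105; chromosome 12, 54178981 to 54203860, minus strand), had 97.5, 73.2 and 112 CPM in controls and 527, 447 and 444 in knockouts. It rose 5.02-fold, with wide separation of the groups (log2FC 2.33, SE 0.18, edgeR adjusted p = 0.00163), and kept its call in 17 of 17 alternative settings. Egln1, the main oxygen sensor of most cells (ENSMUSG00000031987; chromosome 8, 124908587 to 124949324, minus strand), had 88.2, 89.7 and 89.3 CPM in controls and 115, 109 and 100.3 in knockouts. This smaller rise was 1.21-fold (log2FC 0.28, SE 0.06, edgeR adjusted p = 0.0288) and was not called when control 1, control 3, knockout 1 or knockout 2 was removed (highest edgeR adjusted p 0.108), or without the filter. In FPKM the Egln3 share of this pair was 58.4 ± 5.38% in controls and 85.5 ± 0.737% in knockouts. Vhl had 30.1 ± 0.843 CPM in controls and 35.1 ± 1.88 in knockouts, apart in all libraries but not called (log2FC 0.22, SE 0.07, edgeR adjusted p = 0.0723).

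Genes that HIF is known to induce went in both directions. Ddit4, encoding the mTORC1 inhibitor REDD1, which other stresses also induce (ENSMUSG00000020108; chromosome 10, 59949669 to 59951834, minus strand), had 38.3, 56.3 and 38.0 CPM in controls and 124, 93.3 and 104 in knockouts. All knockouts were above all controls, a 2.42-fold rise (log2FC 1.28, SE 0.20, edgeR adjusted p = 0.00883). Bnip3, encoding a receptor for the removal of mitochondria (ENSMUSG00000078566; chromosome 7, 138890836 to 138909519, minus strand), had 28.5, 40.5 and 29.5 CPM in controls and 63.4, 56.9 and 58.1 in knockouts. Its log2FC was 0.86 (SE 0.15, edgeR adjusted p = 0.0136). Its relative Bnip3l had no called change, with 151 ± 14.5 and 141 ± 8.29 CPM (log2FC -0.092, edgeR adjusted p = 0.499, and -0.20 with an edgeR adjusted p of 0.0267 without control 2). Per length, Bnip3 went from 27.1 ± 5.96% to 41.8 ± 1.15% of the pair. Removing any 1 knockout ended the Bnip3 call (highest edgeR adjusted p 0.0592), and an opposite-strand gene, Gm45507, covers 22.3% of its exons, so its counts are uncertain.

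Ankrd37 and Ndrg1, both known as hypoxia-induced genes, fell. Ankrd37, encoding a small ankyrin-repeat protein (ENSMUSG00000050914; chromosome 8, 45996902 to 46005707, minus strand), had 17.4, 10.9 and 16.4 CPM in controls and 3.34, 3.46 and 3.73 in knockouts. The knockouts were tightly grouped at 0.235 of the control level (log2FC -2.09, SE 0.21, edgeR adjusted p = 0.00302), a call kept in 17 of 17 alternative settings. Exons of Lrp2bp and Ufsp2 on the opposite strand cover 26.4% of its exons, so reads of these genes cannot be told apart where the counting ignored strand. Ndrg1, a stress-response gene (ENSMUSG00000005125; chromosome 15, 66929318 to 66969640, minus strand), had 76.0, 62.1 and 74.1 CPM in controls and 46.5, 49.5 and 49.96 in knockouts. The groups did not overlap, with a log2FC of -0.54 (SE 0.09, edgeR adjusted p = 0.0128). Ndrg1 was not called once control 1, control 3 or any 1 knockout was removed (highest edgeR adjusted p 0.0634).

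The collagen prolyl hydroxylase subunits P4ha1 and P4ha2 and the carbonic anhydrase gene Car9 showed no called change. P4ha1 had 217, 388 and 260 CPM in controls and 309, 297 and 275 in knockouts, and P4ha2 had 69.3, 114 and 80.3 CPM in controls and 82.9, 86.0 and 86.0 in knockouts. Control 2 was the highest of all 6 libraries for both. Without it the log2FC of P4ha1 went from 0.026 to 0.27 (edgeR adjusted p = 0.944 and 0.0414) and that of P4ha2 from -0.051 to 0.15 (edgeR adjusted p = 0.867 and 0.102). Col1a1, a collagen whose chains these enzymes modify, had 5480 CPM in control 2, 213 and 627 CPM in controls 1 and 3, and 104 to 235 CPM in knockouts. The part of fibroblast transcripts in the P4ha values was not tested. Car9, widely used as a marker of hypoxia, was low, with 6.999, 5.98 and 6.51 CPM in controls and 4.93, 5.96 and 5.62 in knockouts (edgeR adjusted p = 0.269).

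**Figure D3:**
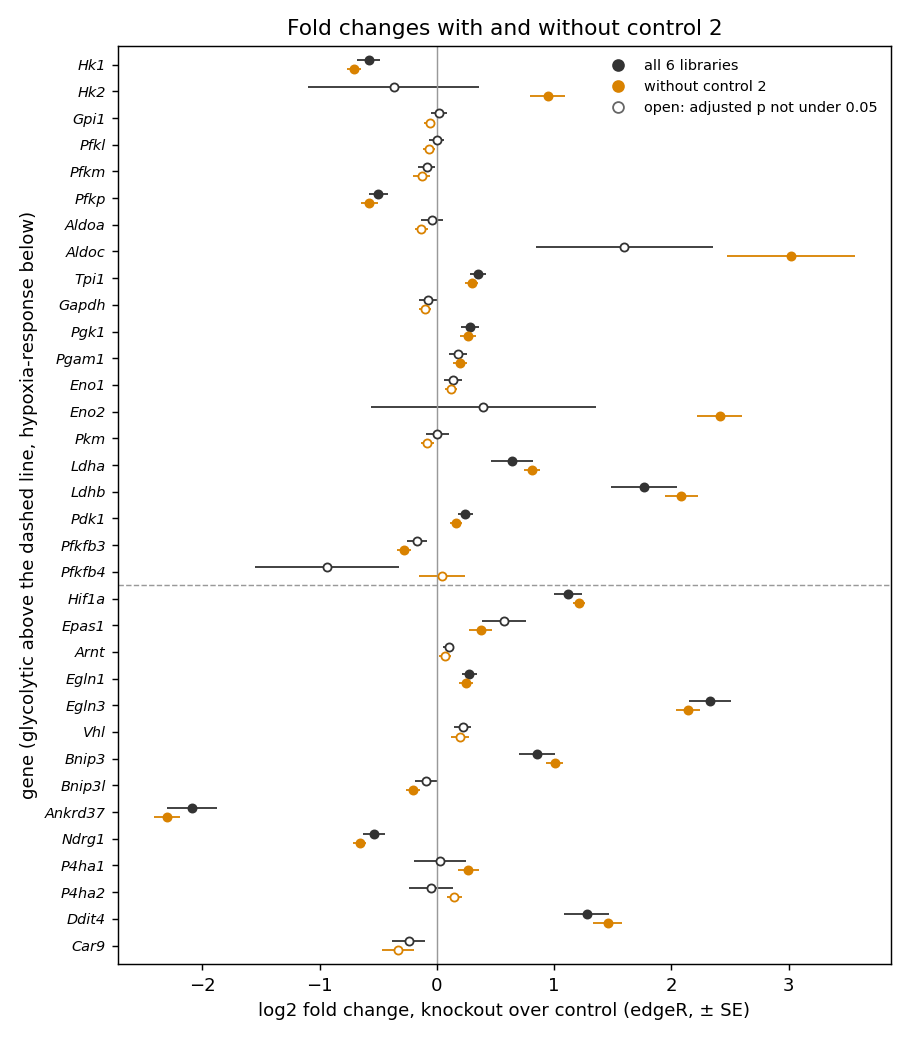
Log2 fold change of knockout over control with its SE for each gene, from all 6 libraries (black) and without control 2 (orange); filled points have an edgeR adjusted p under 0.05. The black and orange points lie close together for Hif1a, Egln3, Ankrd37 and Tpi1 and far apart for Hk2, Eno2, Aldoc and Pfkfb4.

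Levels were more spread among controls than among knockouts. The coefficient of variation of CPM had a median of 9.39% over the 34 genes in controls and 5.15% in knockouts, and was larger in controls for 27 genes. Control 2 was the highest control for 16 genes and the lowest for 15. Neither the spread nor these counts were worked out over all tested genes, where control 2 also stood apart. They therefore do not mark the 34 genes out from others. The cells also differed in sex: Xist, the RNA of the inactive X chromosome, was 431 to 610 CPM in control 2 and knockouts 2 and 3 and at most 5.31 CPM in the others. Within these sets, knockout 1 against controls 1 and 3 and knockouts 2 and 3 against control 2, all 14 called genes kept their direction. This was fixed beforehand, because the CPM of knockouts and controls did not overlap for any of these 14 genes. It therefore says nothing about the part of sex, and only the sizes of the ratios are informative. Hif1a had log2 ratios of 1.27 and 0.89 in the respective sets, Egln3 2.33 and 2.61, Ankrd37 -2.34 and -1.60, Ldhb 1.91 and 1.35, and Ldha 0.89 and 0.28. Each set has 1 library on one side, so these ratios have no test of their own. A fit of all 6 libraries with the sex of the cells as a term, added after seeing the data, kept 11 of the 14 calls, all in the same direction. The exceptions were Pgk1, Ldha and Pdk1 (edgeR adjusted p = 0.0899, 0.0706 and 0.0519), and Epas1 was called higher in that fit (log2FC 0.73, SE 0.11, edgeR adjusted p = 0.0159).

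**Figure D4:**
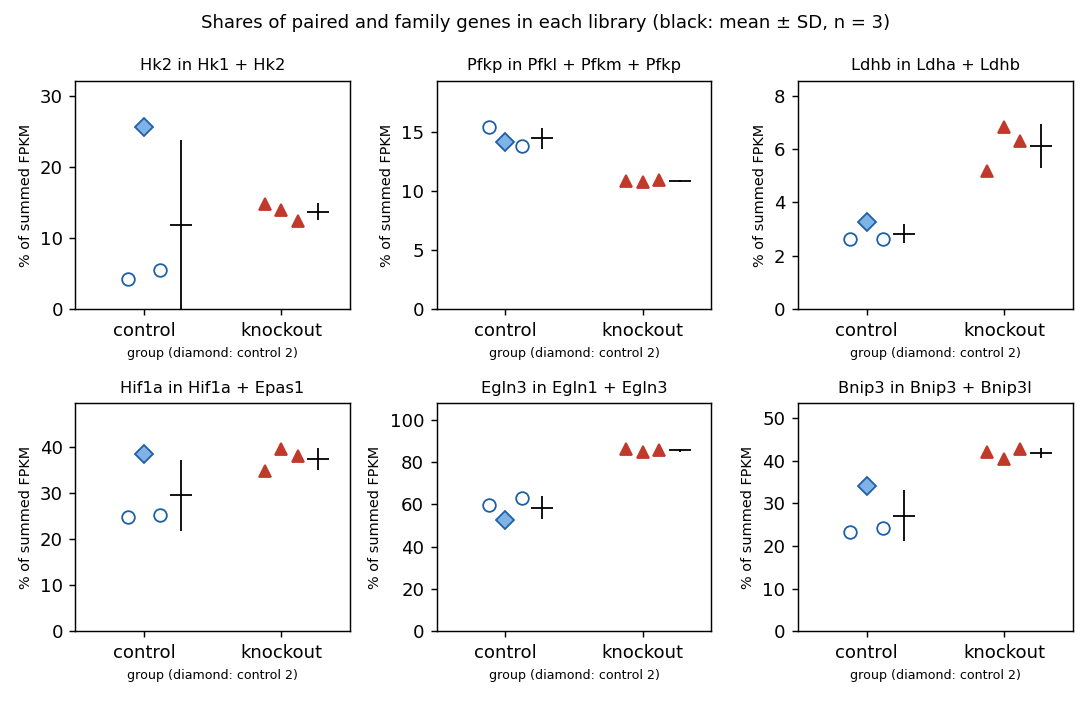
Percent of the summed FPKM of a pair or family held by 1 gene in each library, with circles for controls 1 and 3, diamonds for control 2, triangles for knockouts, and the mean ± SD of n = 3 in black. Egln3, Ldhb and Bnip3 had larger shares and Pfkp a smaller share in all knockouts than in any control, while the Hk2 and Hif1a shares of control 2 overlapped or exceeded those of the knockouts.

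Around the set, genes that carry glucose and lactate changed in both directions, with 2 higher and 3 lower of 10 tested, or 50% called against 24.7% of all genes. Slc2a6, encoding a facilitative hexose transporter, rose from 1.47 ± 1.80 to 14.7 ± 3.42 CPM (log2FC 3.32, edgeR adjusted p = 0.0459; 5.04 without control 2), and the insulin-responsive transporter gene Slc2a4 fell from 16.9 ± 7.93 to 4.995 ± 1.58 CPM (log2FC -1.76). The others, named after their values were seen, were Bsg, encoding the chaperone of lactate carriers (524 ± 62.7 to 979 ± 78.6 CPM), which rose, and Slc2a3 and Slc2a10, which fell. Slc2a3, a neuronal glucose transporter gene, had a log2FC of -3.18 with all libraries and -1.84 without control 2. Slc2a1, the main glucose transporter gene of brain endothelium and also picked out afterwards, had 471, 224 and 443 CPM in controls and 506, 536 and 519 in knockouts. It was above all controls in each knockout but not called (log2FC 0.46, SE 0.28, edgeR adjusted p = 0.280; 0.15 and 0.0596 without control 2).

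Of 8 tested other glycolytic isozymes and regulators 1 was called (12.5%), Bpgm, whose enzyme makes 2,3-bisphosphoglycerate and which rose from 28.9 ± 12.7 to 66.6 ± 8.20 CPM (log2FC 1.20, edgeR adjusted p = 0.0397). The other 8 of that list of 16 did not pass the filter on low counts. At the entry of pyruvate into mitochondria, 1 of 13 rose and 1 fell (15.4% called). Pdp1, encoding a phosphatase that switches pyruvate dehydrogenase on and so opposes Pdk1, stood at 36.2 ± 4.73 CPM in controls and at 19.3 ± 0.263 in knockouts, a fall (log2FC -0.91, SE 0.11, edgeR adjusted p = 0.00493). Pdpr, encoding a regulatory subunit of that phosphatase, rose from 24.3 ± 2.22 to 32.0 ± 0.766 CPM. In the pentose phosphate pathway, with 37.5% called against the same 24.7%, 2 of 8 rose, H6pd (162 ± 24.4 to 280.5 ± 23.0 CPM) and G6pdx, and Taldo1, encoding transaldolase, fell from 466 ± 188 to 203 ± 10.2 CPM (log2FC -1.20, edgeR adjusted p = 0.0464). The citric acid cycle had 1 called gene of 17, Dlst, which fell from 200 ± 7.87 to 163 ± 2.23 CPM (log2FC -0.29, edgeR adjusted p = 0.0169), or 5.88% called against 24.7% of all genes. G6pdx was named after its values were seen.

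Among 10 tested other regulators of HIF, Cited2 was the gene called (10% of the list, against 24.7% of all genes). Cited2, whose protein competes with HIF for its coactivator and is itself induced by HIF, rose from 148 ± 21.7 to 310 ± 13.8 CPM (log2FC 1.06, SE 0.12, edgeR adjusted p = 0.00370). Arnt2, a relative of Arnt that was picked out after its values were seen, had 9.42, 67.3 and 10.2 CPM in controls and 132, 152 and 130 in knockouts. It was not called with all libraries (log2FC 2.25, SE 0.82, edgeR adjusted p = 0.101) but was without control 2 (log2FC 3.78, edgeR adjusted p = 2.101e-06). Other hypoxia-induced genes had 5 higher and 4 lower of 22 tested, or 40.9% called against 24.7%, with a median log2FC of 0.15. Plin2, encoding a coat protein of lipid droplets, rose from 219 ± 15.2 to 613 ± 36.6 CPM (log2FC 1.49, SE 0.09, edgeR adjusted p = 0.0009906). Pgf, encoding placental growth factor, fell from 709 ± 380 to 160 ± 24.4 CPM (log2FC -2.15, SE 0.48, edgeR adjusted p = 0.0273). The others that rose were Stc2, Ero1l, Higd1a and Insig2, and those that fell included Bhlhe40 and Plod1, all named after their values were seen. Vegfa and Adm, classical HIF targets also picked out afterwards, were decided by control 2. Vegfa had 69.7, 424 and 75.8 CPM in controls and 250, 211 and 196 in knockouts, and Adm had 554, 153 and 566 CPM in controls and 742, 820 and 722 in knockouts. Without control 2 both were called higher, with log2FCs of 1.56 and 0.41 in place of 0.21 and 0.84 (edgeR adjusted p = 4.683e-05 and 0.00218 in place of 0.863 and 0.2499).

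**Figure D5:**
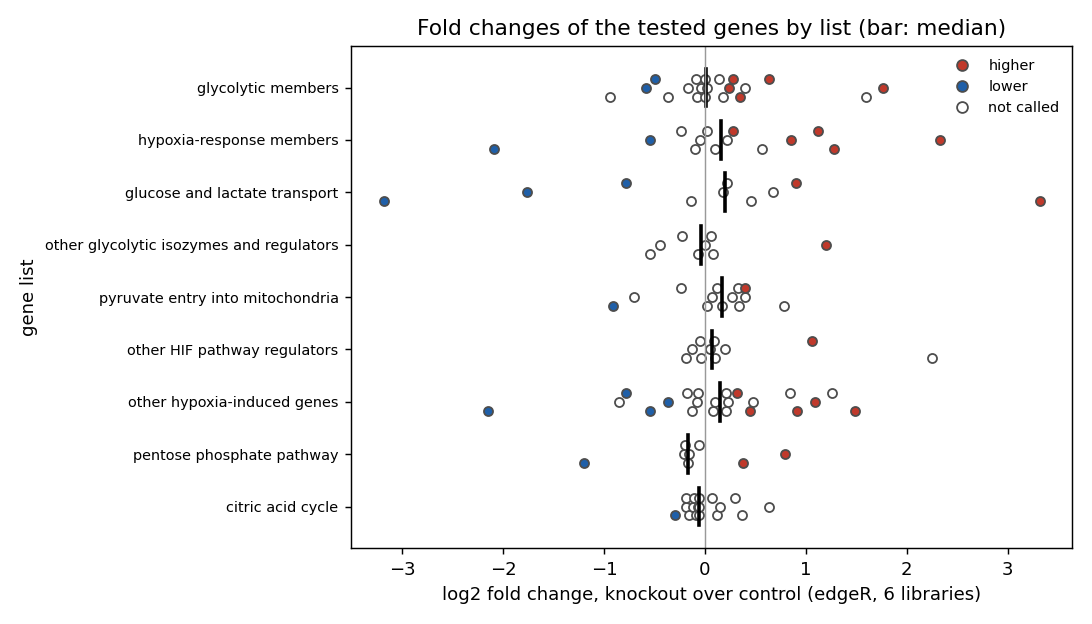
Log2 fold change of knockout over control (edgeR, 6 libraries) for each tested gene of the 2 main sets and of 7 related lists; red points were called higher, blue points lower and open points neither, and the black bar is the median of the list. Hypoxia-response and other hypoxia-induced genes spread to both sides of 0, while citric acid cycle genes lie between -0.29 and 0.63 with 1 call.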

How the data were processed

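Polyadenylated RNA of sorted cells was sequenced from 3 control and 3 knockout samples, with groups and replicate numbers taken from the titles. The authors deposited raw counts, whole numbers per Ensembl gene; the submitters' processing notes name FastQC 0.11.5, STAR 2.7.6a and GRCm38, and leave the counter, its strand setting and the annotation not given in the sources used here. The protocol names a stranded and an unstranded TruSeq kit without saying which was used. Symbols and exons came from GENCODE M21 (52489 of 52636 identifiers matched); a second row named Aldoa, with at most 2 counts per library, was not used. Promoters came from the RefSeq table for GRCm38.p6.

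Genes were filtered with filterByExpr, scaled with TMM and tested with edgeR 4.0.16 in R 4.3.3 (quasi-likelihood F test, two-sided, no covariate), with Benjamini-Hochberg adjustment over all 13901 genes. The SE is the log2 fold change divided by the square root of F. FPKM divides CPM by the union of annotated exons, so rarely used exons lower it. The SD between libraries, which includes counting error, is the error given; counting error weighs most on genes with few counts, such as Aldoc, Eno2, Slc2a3 and Slc2a6. Exact permutation of 3 against 3 libraries cannot go below p = 0.1, so it was not used for calls. The procedure was tested on simulated counts, where many genes given a moderate change were missed, so a gene without a call may still differ. Alternatives were RLE, upper-quartile and library-size scaling, DESeq2 1.42.0, limma 3.58.1 (voom, with and without sample weights), other filters, leaving out each library, a block by replicate number, a threshold of 0.01, and counts of gene copies added; a fit with the sex of the cells (Xist above or below Ddx3y) as a term was added after seeing the data.

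The 34 genes and the lists were chosen with earlier results of these data known. All 34 are named; from each related list, the 2 called genes with the largest absolute log2 fold change at a mean of at least 5 CPM are named, or, where none is called, the most abundant. A gene of a related list is counted but not reported here by name.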

Additional observations from a re-analysis of the deposited data

How the results depend on the processing

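With 1 library left out, the glycolytic genes called numbered 1 to 9 higher and 0 to 3 lower, the hypoxia-response genes 3 to 7 higher and 1 to 3 lower, and all genes 1351 to 7128; the highest counts were those without control 2. Other settings moved the counts by more than 1.5 times as follows. Glycolytic genes called higher were 2 with RLE size factors, 2 without the filter, 2 with the sex of the cells as a term and 10 with sample weights; hypoxia-response genes called higher were 8 with library size only. At an adjusted p under 0.01 the glycolytic set had 1 higher and 1 lower, the hypoxia-response set 3 higher and 1 lower, and all genes 1256. Sample weights gave 7387 genes. With the replicate block, 1 glycolytic gene was called higher, 1 hypoxia-response gene lower and 1844 genes in all. Tpi1, Pgk1, Ldha, Pdk1, Egln1 and Ndrg1 lost their calls with that block. Whether the numbers pair the samples is not known. Deviations from the group means correlated at -0.188, 0.186 and 0.319 between same-numbered libraries, and control 1 correlated best with knockout 3. These values cannot decide on pairing. Deviations within a group sum to 0, so control 2, which stood apart, shapes those of controls 1 and 3. Of the calls over all genes, 52.8% were higher with TMM and 66.4% with library size only.

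Of 238 repeats of the 14 called log2 fold changes, 183 kept their call, 55 lost it and 0 turned. Among uncalled genes, 21 repeats gained a call without a change of sign. These were Pgam1, Epas1, Arnt and Vhl with library size only, Eno1 and Epas1 with DESeq2, and Epas1 with the sex term. With sample weights they were Aldoc, Pgam1, Eno1, Eno2, Pfkfb3, Epas1 and Vhl, and the rest came without control 2. Uncalled genes changed sign as follows: Gpi1 (-0.0090 with RLE and with DESeq2, -0.022 with sample weights), Pkm (-0.024 with RLE and with DESeq2, -0.014 with upper-quartile scaling, -0.045 with sample weights, -0.0017 with the stricter filter), Pfkl (0.0898 with library size only, 1e-04 with voom, 0.014 without the filter, 0.011 with the sex term), P4ha1 (-0.034 with the sex term), P4ha2 (0.040 with library size only, 0.16 with sample weights) and Hk2 (0.16 with voom, 0.92 with sample weights, 0.18 with the replicate block). With library size only Pfkm, Aldoa and Gapdh were 0.0017, 0.050 and 0.017. With 1 library left out, the lowest and highest values were -0.78 and 0.94 for Hk2, -0.092 and 2.41 for Eno2, -1.27 and 0.043 for Pfkfb4, -0.15 and 0.27 for P4ha1, -0.20 and 0.15 for P4ha2, -0.059 and 0.036 for Gpi1, -0.082 and 0.038 for Pkm, and -0.065 and 0.014 for Pfkl. The cause was not tested.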
